A study of Mus musculus with 3 samples.

Results

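The pharyngeal pouch regulators *Pax1*, *Pax9*, *Six2*, *Six4*, *Eya1* and *Trp63* were followed through thymic lobes of mouse embryos. These 6 genes were chosen by name, with earlier results of these data known. All 6 were found among the 27998 genes of the deposited matrices. Their UMIs (unique molecular identifiers, each standing for 1 captured transcript) were summed over cells positive for *Epcam* (epithelium), *Pdgfra* (mesenchyme), *Cdh5* (endothelium) or *Ptprc* (blood lineages). Within Epcam-positive cells they were summed over Pth-high, Krt5-high and Psmb11-positive cells, each genotype by itself. Sums are given as CPM, the UMIs of a gene per 1000000 UMIs of the cells summed.

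The series holds 3 droplet 3′ single-cell libraries of C57BL/6 embryonic thymus at gestational day 13 to 13.5, which is 1 library for each genotype. The control was wild type. The Tbx1neo2/neo2 line carries a neomycin cassette in intron 5 of *Tbx1* on both alleles, a model of the human 22q11.2 deletion syndrome. The Foxn11089/1089 line carries a short deletion in both alleles of *Foxn1*, the transcription factor needed for the thymic epithelial programme. The number of embryos behind each library is not given in the sources used here. With 1 library per genotype no difference between genotypes was tested, and both mutant libraries were set against the same control. All intervals below are exact 95% intervals that cover counting error only.

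The thymus and the inferior parathyroids both form from the endoderm of the third pharyngeal pouch. *Pax1* and *Pax9* encode paired-box factors of the pouch endoderm. *Six2* and *Six4* encode sine oculis homeobox factors, and *Eya1* encodes a transcriptional coactivator and phosphatase that works with these factors. *Trp63* encodes p63, a p53 relative that maintains the progenitors of stratified and thymic epithelium. FOXN1 binds DNA through the core letters GACGC.

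The sequence before the RefSeq start site is shown for the members with a RefSeq entry. It is shown because a library carries a mutation in the factor that reads GACGC. Promoter entries were found for 4 of the 6 members, and none for *Eya1* and *Trp63*. Each line is the 250 bases upstream of the RefSeq start on GRCm38.p6, 5′ to 3′ on the strand of the gene, with GACGC or its reverse complement GCGTC in capitals. *Pax1* lies at chr2:147364744-147364993 (plus strand), *Pax9* at chr12:56695221-56695470 (plus), *Six2* at chr17:85688255-85688504 (minus), and the *Six4* entries at chr12:73113246-73113495 and chr12:73113426-73113675 (both minus), so that the *Six4* windows overlap.
Pax1: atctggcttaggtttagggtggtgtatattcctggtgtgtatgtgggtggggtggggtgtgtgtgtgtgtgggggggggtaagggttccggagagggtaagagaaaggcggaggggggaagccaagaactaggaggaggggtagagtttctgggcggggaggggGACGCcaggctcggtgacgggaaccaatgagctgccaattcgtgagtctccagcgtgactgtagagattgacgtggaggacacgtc
Pax9: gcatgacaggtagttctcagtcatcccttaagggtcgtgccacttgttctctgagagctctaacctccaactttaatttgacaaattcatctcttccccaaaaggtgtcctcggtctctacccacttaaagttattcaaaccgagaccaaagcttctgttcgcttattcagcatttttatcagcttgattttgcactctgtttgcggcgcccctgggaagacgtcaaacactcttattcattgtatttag
Six2: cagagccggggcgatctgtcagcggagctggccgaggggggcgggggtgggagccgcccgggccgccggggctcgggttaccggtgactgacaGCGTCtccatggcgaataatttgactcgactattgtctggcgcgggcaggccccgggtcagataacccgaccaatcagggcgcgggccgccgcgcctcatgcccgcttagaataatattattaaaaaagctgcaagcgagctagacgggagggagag
Six4, first entry: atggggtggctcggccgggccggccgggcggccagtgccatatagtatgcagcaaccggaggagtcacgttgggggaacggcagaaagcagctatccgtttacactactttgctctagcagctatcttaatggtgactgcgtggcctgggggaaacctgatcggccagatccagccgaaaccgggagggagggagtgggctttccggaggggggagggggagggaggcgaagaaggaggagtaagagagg
Six4, second entry: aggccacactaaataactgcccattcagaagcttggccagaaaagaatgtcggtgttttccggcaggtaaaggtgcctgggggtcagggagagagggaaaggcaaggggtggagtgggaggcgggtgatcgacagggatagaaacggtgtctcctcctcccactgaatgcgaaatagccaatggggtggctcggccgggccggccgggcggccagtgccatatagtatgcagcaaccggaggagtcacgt
GACGC stood once in the *Pax1* window and once in the *Six2* window, and in none of the *Pax9* and *Six4* windows. On either strand it was present in 22.6% of the 27025 promoters searched. CCAAT was found 2 times for *Pax1*, 1 time for *Six2* and 1 time in the second *Six4* entry, against 34.5% of promoters, and TATAAA was in none of these windows, against 13%. The *Six2* window held 26 CpG and 64.8% GC, the *Pax9* window 7 CpG and 43.6% GC, and the median promoter 6 CpG and 52% GC. A match is a description of the letters only.

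In the annotation of GRCm38 (GENCODE), *Pax1* spans chr2:147361925-147393295, *Pax9* chr12:56691767-56712822, *Six2* chr17:85684277-85688274, *Six4* chr12:73099609-73113456, *Eya1* chr1:14168954-14310235 and *Trp63* chr16:25683763-25892102. The *Pax1* and *Pax9* windows shown above lie wholly inside these spans, and the first *Six4* window lies mostly inside. For these windows the RefSeq start is thus downstream of the GENCODE start, and most or all of the letters shown are within the GENCODE gene. The antisense RNA genes *AI646519* and *Gm15524* overlap the first 869 bases of the *Pax1* span and the first 1198 bases of the *Pax9* span. How strand was used in counting is not given in the sources used here.

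The libraries held 6410 (control), 5759 (Tbx1neo2/neo2) and 12447 (Foxn11089/1089) barcodes, of which 5932, 5516 and 11772 were kept, and 16 to 24 kept barcodes were shared by any pair of libraries. The barcode numbers before filtering equal those that the paper lists for these genotypes. The *Tbx1* level was higher, not lower, in the second library than in the control. Epcam-positive cells held 29 *Tbx1* UMIs in the control (0.857 CPM), 227 in the library labelled Tbx1neo2/neo2 (5.35 CPM) and 729 in the Foxn11089/1089 library (7.80 CPM). The paper describes fetal thymus tissue as lacking *Tbx1* expression, so these low counts cannot decide whether the label is right. The genotype itself was not tested. *Foxn1* was at 84.8, 105.9 and 152.0 CPM, and 3′ tags do not check the deletion. The Epcam-positive cells numbered 1978, 807 and 3845, with 6 of 6 epithelial markers at 10 CPM or more in each library, and the Pdgfra-positive cells numbered 659, 1335 and 2171, with 4 of 4 mesenchymal markers. Their median depth differed, with 16582, 45900 and 20483 UMIs per Epcam-positive cell, and so did their median mitochondrial share (2.56%, 5.64% and 5.69%). In the library labelled Tbx1neo2/neo2, 166 of the 807 Epcam-positive cells carried at least 2 UMIs of *Nkx2-1*, a thyroid and lung factor, against 4 and 9 cells in the others. The summed thyroid list (*Nkx2-1*, *Foxe1*, *Pax8*, *Hhex*, *Tg*) stood at 293.2 CPM there, against 3.43 in the control and 5.38 in the Foxn11089/1089 library. No Epcam-positive cell of that library was Pth-high (0 of 807, interval up to 0.456%), against 27 in the control and 340 in the Foxn11089/1089 library. The red blood cell list summed to 284, 188.5 and 1480 CPM in Epcam-positive cells. The part of depth, of these other cells and of free RNA in the ratios below was not tested, except where a value without those cells is given.

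All 6 members were epithelial genes in every library. *Pax1* was at 666.3, 809.7 and 553.8 CPM in Epcam-positive cells of the control, the library labelled Tbx1neo2/neo2 and the Foxn11089/1089 library, and at 5.99, 6.90 and 6.04 CPM in Pdgfra-positive cells. Epcam-positive over Pdgfra-positive folds were 111 (81.7 to 156), 117 (104 to 133) and 91.7 (79.9 to 106) for *Pax1*. The restriction was weakest for *Six4*, at 8.47-fold (5.45 to 13.9), 5.11-fold (4.53 to 5.77) and 6.69-fold (5.93 to 7.58). *Eya1* was 18.9, 20 and 34.7 times, *Pax9* 103, 64.4 and 72.3 times, *Six2* 81.3, 16.6 and 31.3 times and *Trp63* 48.1, 229 and 127 times higher in Epcam-positive than in Pdgfra-positive cells. Hemoglobin-high cells, which should lack these genes, were used as a floor for RNA from other cells. For *Pax1* that level was 7.16, 5.20 and 9.48 CPM. Of these UMIs, 56%, 30.6% and 20.5% sat in cells that held 5 or more. Whether free RNA or cells caught together gave them was not tested. The Pdgfra-positive *Pax1* level was 0.837 (0.496 to 1.44), 1.33 (0.934 to 1.94) and 0.637 (0.528 to 0.768) of the hemoglobin-high level. Thus no interval placed mesenchymal *Pax1* above that floor in any of the 3 libraries.

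**Figure D1:**
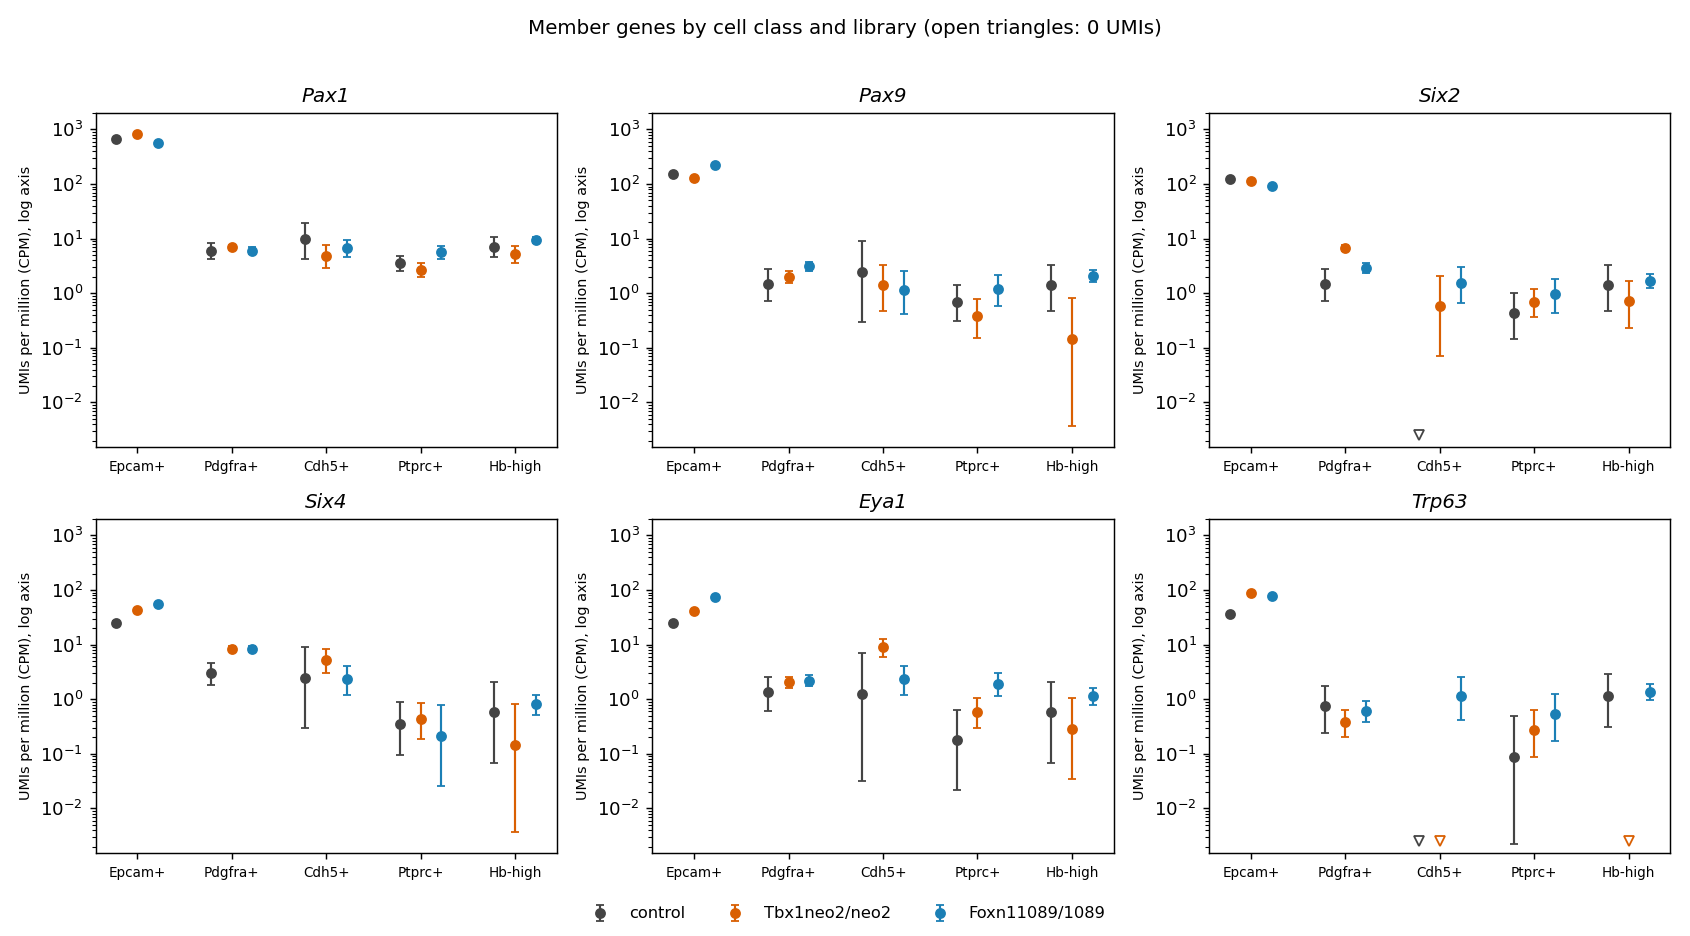
CPM (UMIs per 1000000, log axis) of the 6 members in Epcam-, Pdgfra-, Cdh5- and Ptprc-positive and hemoglobin-high (Hb-high) cells of the 3 libraries, 1 point a library, with bars for the 95% counting interval and open triangles for 0 UMIs. Every member stands highest in Epcam-positive cells in each library, and *Six4* comes closest to it in Pdgfra-positive cells of the mutant libraries, at 8.43 and 8.22 CPM.

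The paired-box genes differed in where they were high. *Pax1* was lowest in Pth-high cells and highest in cells that passed for *Psmb11*, and *Pax9* was highest in Pth-high cells. *Psmb11* encodes the thymoproteasome subunit of the cortical lineage, *Krt5* a basal keratin and *Pth* parathyroid hormone. The 22 Foxn11089/1089 cells that passed for both *Krt5* and *Psmb11* held the most *Pax1* in that library, at 989 CPM (907.3 to 1076). In Psmb11-positive cells *Pax1* was at 784.8 (control), 1140 (Tbx1neo2/neo2) and 920.3 CPM (Foxn11089/1089), in Krt5-high cells at 522.4, 834.8 and 660.4 CPM, and in Pth-high cells at 146.2 (47 UMIs, control) and 165.8 CPM (2007 UMIs, Foxn11089/1089). Within a library, *Pax1* was thus 5.37 times (4.03 to 7.31) and 5.55 times (5.27 to 5.85) lower in Pth-high than in Psmb11-positive cells. Of the 47 control UMIs, 20 came from 1 cell, which the interval does not allow for. *Pax9* was at 370.1 CPM in control and 469.6 CPM in Foxn11089/1089 Pth-high cells, against 167.7 and 239 CPM in Psmb11-positive cells, which made it 2.21-fold (1.82 to 2.65) and 1.96-fold (1.85 to 2.09) higher. Krt5-high cells had less of both: *Pax1* was 1.5, 1.37 and 1.39 times lower and *Pax9* 1.72, 1.95 and 1.78 times lower than in Psmb11-positive cells of the same library, in the order control, Tbx1neo2/neo2 and Foxn11089/1089.

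Between genotypes, neither paired-box gene passed 1.5-fold over all Epcam-positive cells. *Pax1* was 1.22-fold (1.19 to 1.24) the control in the library labelled Tbx1neo2/neo2 (0.928-fold when ratios were centred on the median of all genes) and 0.831-fold (0.818 to 0.844) in the Foxn11089/1089 library. *Pax9* stood at 154.0, 128.4 and 223.6 CPM, which is 0.834-fold (0.803 to 0.866) and 1.45-fold (1.41 to 1.5). Both values for the library labelled Tbx1neo2/neo2 moved with its Nkx2-1-positive cells, in which *Pax1* was at 22 CPM and *Pax9* at 6.65 CPM. Without Nkx2-1-positive and Pth-high cells, *Pax1* was at 672.2, 1045 and 612.9 CPM, a fold of 1.55 (1.53 to 1.58) and of 0.912 (0.897 to 0.926). The median of all genes in these cells was itself 1.28-fold and 1.18-fold the control. *Pax9* was then at 152.1, 164.8 and 187.3 CPM, a fold of 1.08 (1.04 to 1.13, or 0.846 when centred) and of 1.23 (1.19 to 1.27), so the direction of *Pax9* in the library labelled Tbx1neo2/neo2 depended on those cells. In the Epcam-positive cells that were none of the named groups, which hold most of the Nkx2-1-positive cells, *Pax9* was at 152.1, 69.8 and 189.3 CPM.

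*Six2* differed widely between the epithelial groups. It was a gene of Psmb11-positive cells and of the ungrouped epithelium, and it was low in Krt5-high and Pth-high cells of the control. Psmb11-positive cells held 2477, 3471 and 751 *Six2* UMIs (151.4, 171.8 and 131.5 CPM). Krt5-high cells held 20, 7 and 181 UMIs (6.08, 3.57 and 24.1 CPM), from 206, 41 and 318 cells. Within a library *Six2* was 24.9 times (16.1 to 40.8) lower in Krt5-high than in Psmb11-positive cells of the control, 48.1 times (23.3 to 120) lower in the library labelled Tbx1neo2/neo2 and 5.46 times (4.64 to 6.46) lower in the Foxn11089/1089 library. The *Psmb11* gate was not scaled to depth, and these folds were not computed with a scaled gate. With Psmb11-positive set from 1 UMI per 10000, *Six2* in Krt5-high cells labelled Tbx1neo2/neo2 had a log2 ratio to the control of 0.48, against -0.77. Cells that passed for both *Krt5* and *Psmb11* were at 16.1, 24 and 20.2 CPM, which was 9.38, 7.17 and 6.52 times below the Psmb11-positive level. Only in the Foxn11089/1089 library were they not above the Krt5-high level, with overlapping intervals. The 27 Pth-high cells of the control held 0 *Six2* UMIs, with an exact upper limit of 11.47 CPM. Set at a floor of 3 counts over the group (9.33 CPM), the gene was 16.2-fold lower there than in Psmb11-positive cells, a fold without an interval. The 340 Pth-high cells of the Foxn11089/1089 library held 93 UMIs (7.68 CPM), 17.1 times (13.8 to 21.5) below its Psmb11-positive cells. For comparison, *Six2* stood at 1.43, 0.722 and 1.68 CPM in hemoglobin-high cells.

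Over all Epcam-positive cells *Six2* was at 121.7, 113.8 and 91.4 CPM, 0.935-fold (0.897 to 0.975) the control in the library labelled Tbx1neo2/neo2 and 0.751-fold (0.723 to 0.779) in the Foxn11089/1089 library. Without Nkx2-1-positive and Pth-high cells the values were 123.1, 146.0 and 104.1 CPM, and the first fold turned to 1.19 (1.14 to 1.24, or 0.926 when centred), with the second at 0.846 (0.815 to 0.878). In Krt5-high cells *Six2* was 3.96-fold (2.49 to 6.64) the control in the Foxn11089/1089 library. With cells thinned to 5000 UMIs, 2 of 190 control cells (1.05%, 0.128 to 3.75), 2 of 35 cells labelled Tbx1neo2/neo2 (5.71%, 0.700 to 19.2) and 28 of 309 Foxn11089/1089 cells (9.06%, 6.11 to 12.8) of the Krt5-high group had a *Six2* UMI. The gene of the gate differed as well: *Psmb11* was at 227.5, 112.6 and 10.9 CPM in Epcam-positive cells, and its part in the Krt5-high ratio was not tested.

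**Figure D2:**
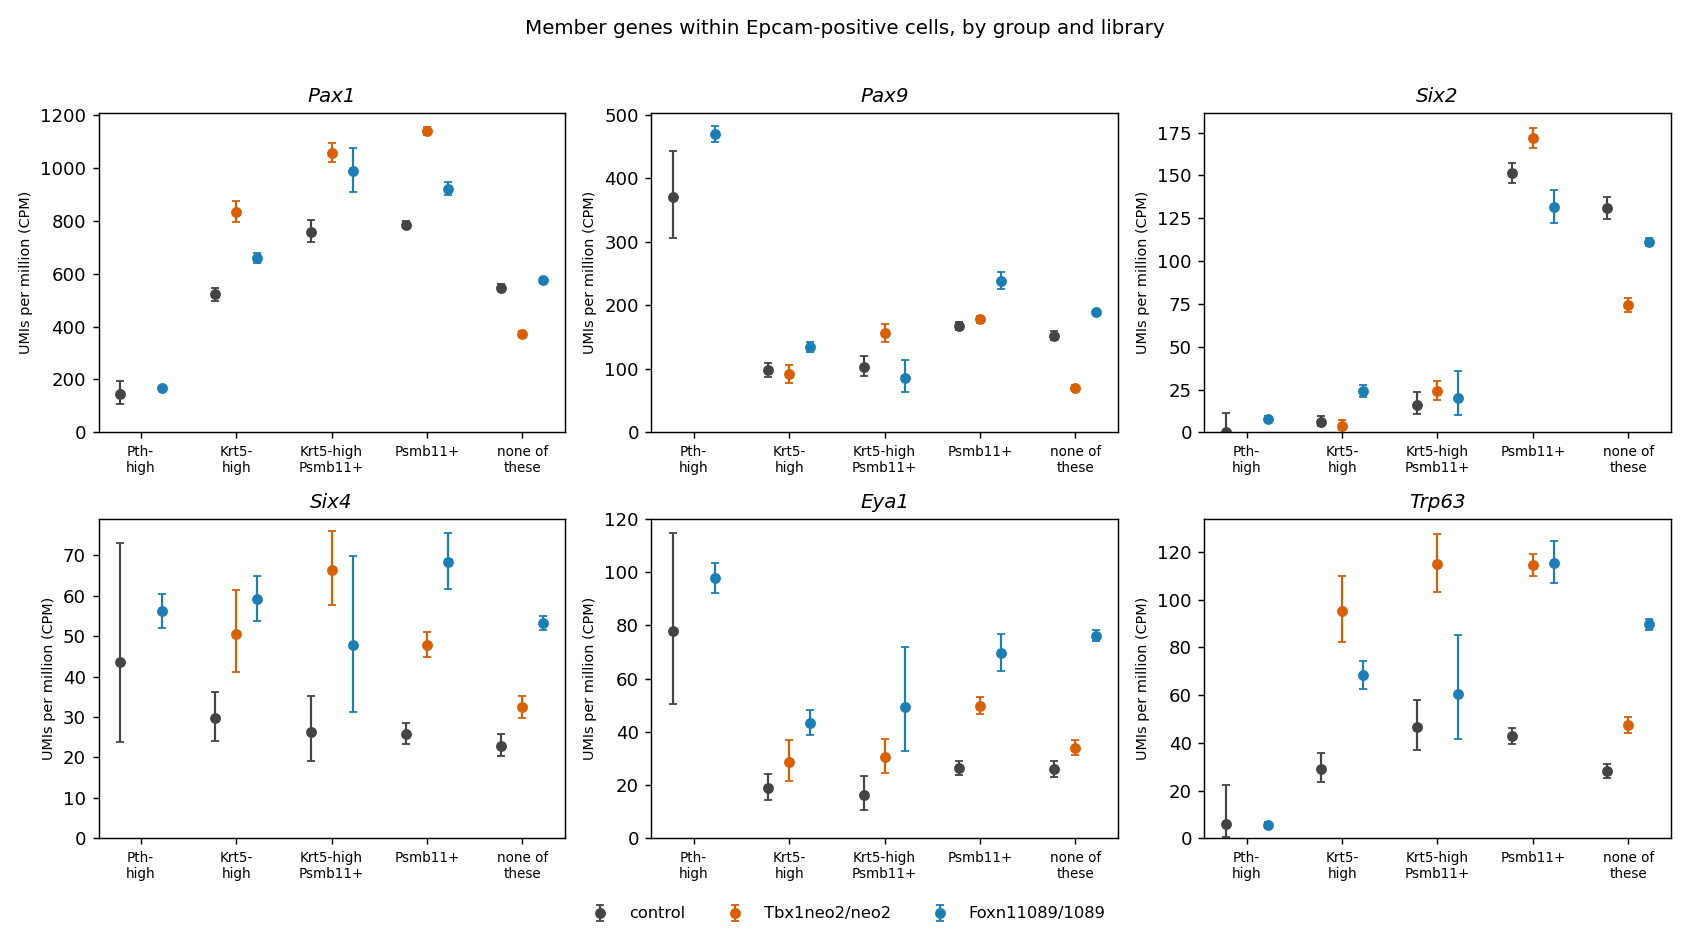
CPM (UMIs per 1000000, linear axes from 0, a scale for each gene) of the 6 members in 5 groups of Epcam-positive cells of the 3 libraries, 1 point a library, with bars for the 95% counting interval; the library labelled Tbx1neo2/neo2 had no Pth-high cells. *Six2* is above 70 CPM only in Psmb11-positive and ungrouped cells, while *Pax9* and *Eya1* stand highest in Pth-high cells and *Trp63* and *Pax1* lowest there.

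*Six4* and *Eya1* were higher in both mutant libraries than in the control over Epcam-positive cells and in each of their groups, except Pth-high cells, where the intervals of the ratio included 1, and except *Eya1* in Krt5-high cells labelled Tbx1neo2/neo2, whose log2 ratio of 0.60 was -0.27 with each cell weighted equally. In Epcam-positive cells *Six4* was at 25.4 CPM in the control (858 UMIs), 43.0 CPM in the library labelled Tbx1neo2/neo2 (1827 UMIs) and 55.0 CPM in the Foxn11089/1089 library (5141 UMIs). The folds over the control were 1.70 (1.56 to 1.84) and 2.17 (2.02 to 2.33). *Eya1* was at 25.4, 41.0 and 75.7 CPM (860, 1740 and 7076 UMIs), with folds of 1.61 (1.49 to 1.75) and 2.98 (2.77 to 3.20). The intervals of the 3 libraries did not overlap for either gene. Over these cells the median of all genes was itself 1.31-fold and 1.25-fold the control. In ungrouped cells labelled Tbx1neo2/neo2 *Eya1* was at 33.99 CPM and *Six4* at 32.36 CPM, against 25.96 and 22.92 CPM in the control. The median of all genes was 1.31-fold there as well. In Psmb11-positive cells *Six4* was at 25.9, 47.9 and 68.3 CPM and *Eya1* at 26.3, 49.8 and 69.5 CPM, in the same order of libraries. That group held 50.4%, 49.4% and 6.09% of the Epcam-positive cells, by a gate not scaled to depth, and is thus not matched between libraries. In Krt5-high cells *Six4* was at 29.8, 50.4 and 59.2 CPM and *Eya1* at 18.8, 28.5 and 43.2 CPM, and the Tbx1neo2/neo2 and Foxn11089/1089 intervals of *Six4* overlapped there. Without Nkx2-1-positive and Pth-high cells the folds were 1.97 (1.81 to 2.14) and 2.18 (2.03 to 2.35) for *Six4*, and 1.97 (1.81 to 2.14) and 2.91 (2.70 to 3.13) for *Eya1*.

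Across the groups of one library, *Eya1* resembled *Pax9* and *Six4* was nearly even. Pth-high cells of the control held 25 *Eya1* UMIs (77.8 CPM) and those of the Foxn11089/1089 library 1182 (97.7 CPM), 2.96-fold (1.89 to 4.43) and 1.40-fold (1.25 to 1.58) the level of Psmb11-positive cells. Krt5-high cells had 1.39, 1.74 and 1.61 times less *Eya1* than Psmb11-positive cells. *Six4* in Krt5-high cells was 1.15-fold (0.915 to 1.44), 1.05-fold (0.849 to 1.30) and 0.867-fold (0.755 to 0.996) the Psmb11-positive level. In Pth-high cells it was 1.68-fold (0.913 to 2.86) in the control, on 14 UMIs, and 0.821-fold (0.724 to 0.933) in the Foxn11089/1089 library.

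*Trp63* was higher in both mutant libraries, and it was almost missing from Pth-high cells. In Epcam-positive cells it was at 36.0 CPM in the control (1218 UMIs), 86.5 CPM in the library labelled Tbx1neo2/neo2 (3671 UMIs) and 78.5 CPM in the Foxn11089/1089 library (7334 UMIs). The folds over the control were 2.40 (2.25 to 2.56) and 2.18 (2.05 to 2.32). The highest fold among the groups was 3.27 (2.54 to 4.22), in Krt5-high cells labelled Tbx1neo2/neo2 (187 UMIs from 41 cells, 95.3 CPM, against 96 UMIs and 29.2 CPM in the control). In Psmb11-positive cells *Trp63* was at 42.8, 114.4 and 115.6 CPM, and the intervals of the mutant libraries overlapped. Without Nkx2-1-positive and Pth-high cells the folds were 2.97 (2.78 to 3.17) and 2.46 (2.32 to 2.62). Pth-high cells held 2 *Trp63* UMIs in the control (6.22 CPM) and 67 in the Foxn11089/1089 library (5.54 CPM), which was 6.88 times (1.90 to 56.9) and 20.9 times (16.2 to 27.3) below the Psmb11-positive level. Although *Krt5* and p63 mark basal cells in many stratified epithelia, *Trp63* was 1.47, 1.2 and 1.69 times lower in Krt5-high than in Psmb11-positive cells. Krt5-high cells here leave out those that also passed for *Psmb11*. Cells that passed for both held *Trp63* at 46.59, 114.9 and 60.55 CPM, below the Psmb11-positive level only in the Foxn11089/1089 library.

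**Figure D3:**
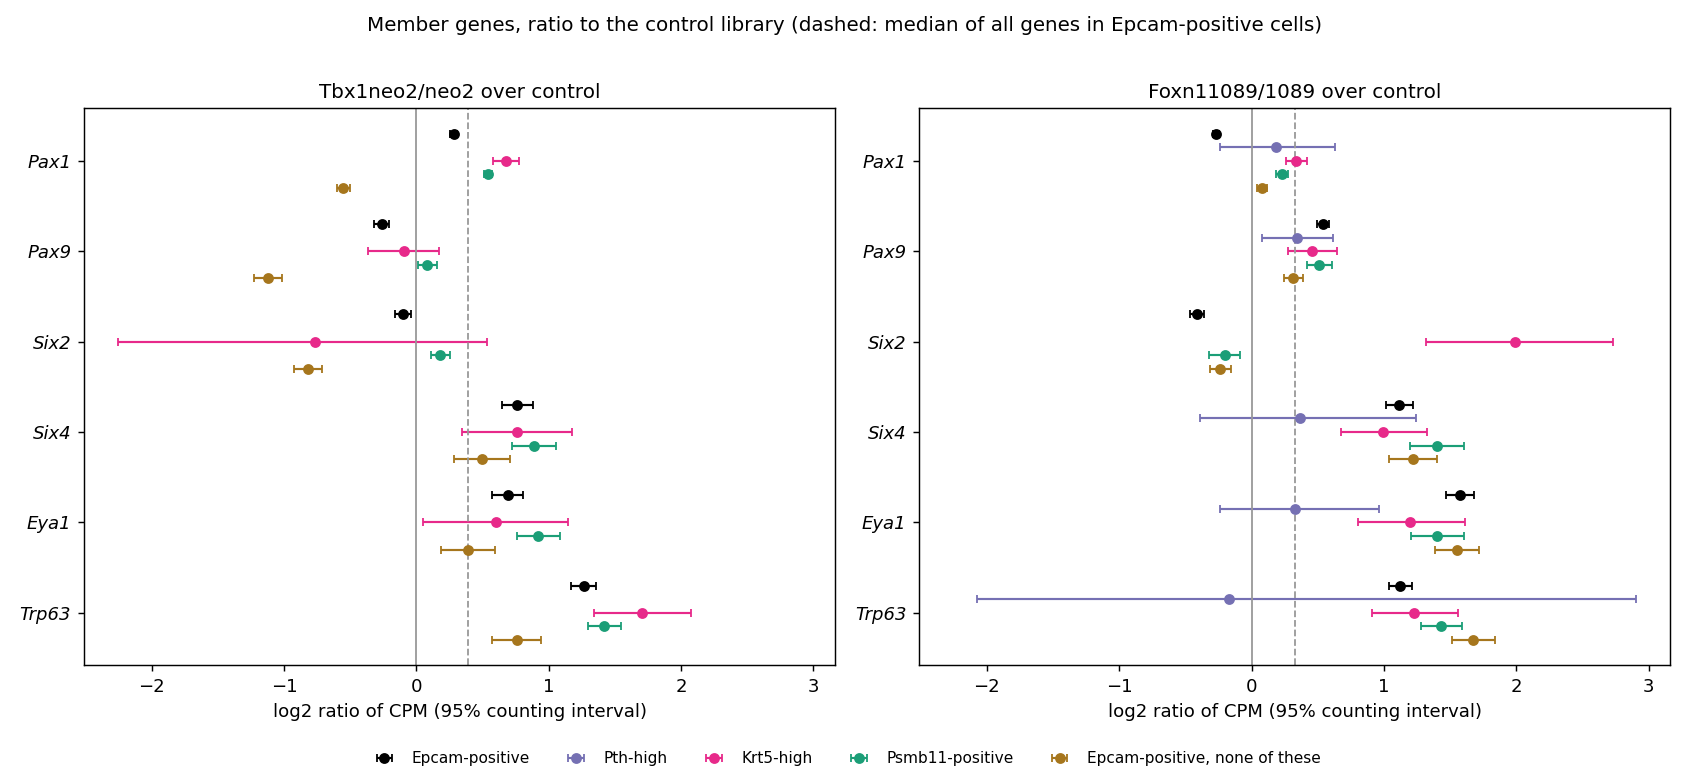
Log2 ratio of CPM of each member to the control library, with 95% counting intervals, in Epcam-positive cells and 4 of their groups (colours); the left panel is the library labelled Tbx1neo2/neo2 and the right panel the Foxn11089/1089 library. *Six4*, *Eya1* and *Trp63* lie above 0 in both panels in every group but *Trp63* in Pth-high cells, and the dashed line is the median of all genes in Epcam-positive cells (0.39 and 0.33).

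These counts stand on a wide background. In Epcam-positive cells 3 of the 6 members (*Six4*, *Eya1* and *Trp63*) were at least 1.5-fold higher and 0 at least 1.5-fold lower in the library labelled Tbx1neo2/neo2, where 39.0% of 15597 genes with at least 30 UMIs were that much higher and 12.0% that much lower. In the Foxn11089/1089 library the same 3 members were higher and 0 lower, against 36.8% and 14.1% of genes. All genes had a median log2 ratio of 0.39 (1.31-fold) and 0.33 (1.25-fold), and the members a median of 0.49 and 0.83. With ratios centred on the all-gene median, 1 member was higher (*Trp63*, 1.84-fold) and 1 lower (*Pax9*, 0.637-fold) in the library labelled Tbx1neo2/neo2, against 19.1% and 22.9% of genes. The Foxn11089/1089 library then had 3 higher (*Six4* 1.73-fold, *Eya1* 2.38-fold, *Trp63* 1.74-fold) and 2 lower (*Pax1* 0.663-fold, *Six2* 0.599-fold), against 23.0% and 23.3% of genes. A count of 3 of 6 members is near the share of all genes that were higher, and nothing is read from the count itself.

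In the groups, shares were counted in either direction. Without Nkx2-1-positive and Pth-high cells, 4 of 6 members passed 1.5-fold in the library labelled Tbx1neo2/neo2 (48.0% of genes did) and 3 of 6 in the Foxn11089/1089 library (45.4%). In Psmb11-positive cells 3 of 6 passed in each, against 48.5% and 47.7% of genes. In Krt5-high cells 5 of 6 passed in the library labelled Tbx1neo2/neo2 (48.1% of genes), of which *Six2* was lower on 7 UMIs with an interval of 0.210 to 1.45, and 4 of 6 in the Foxn11089/1089 library (48.7%). In the ungrouped Epcam-positive cells 3 of 6 passed in each library, against 54.2% and 44.8% of genes. Their directions differed: *Pax9* (0.459-fold) and *Six2* (0.568-fold) were lower and *Trp63* (1.69-fold) higher in the library labelled Tbx1neo2/neo2, while *Six4* (2.33-fold), *Eya1* (2.93-fold) and *Trp63* (3.19-fold) were higher in the Foxn11089/1089 library.

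In Pth-high cells, of which the Foxn11089/1089 library had 340 and the control 27, 1 of 6 members was past 1.5-fold, against 44.2% of genes. That member was *Six2*, with 0 UMIs in the control and 93 in the Foxn11089/1089 library. Its 7.68 CPM there lies under the exact upper limit of 11.47 CPM in the control. *Pax9* was 1.27-fold (1.06 to 1.53), *Six4* 1.29-fold (0.762 to 2.37), *Eya1* 1.26-fold (0.846 to 1.95), *Pax1* 1.13-fold (0.850 to 1.55) and *Trp63* 0.890-fold (0.237 to 7.5) the control. These intervals are wide, and 4 of the 5 hold both 1 and 1.5. Of these cells 3 of 27 and 81 of 340 were likely doublets, and without them the log2 ratio of *Pax1* was 0.89 (0.27 to 1.58) where it had been 0.18.

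Within a library, the groups of Epcam-positive cells differed from the Psmb11-positive cells as follows. In control Pth-high cells all 6 members were past 1.5-fold in either direction, *Six2* by its absence, and 62.5% of genes were. In Foxn11089/1089 Pth-high cells 4 of 6 were (*Pax1*, *Pax9*, *Six2* and *Trp63*), against 54.8% of genes. In Krt5-high cells 3 of 6 were in the control (*Pax1*, *Pax9* and *Six2*; 35.9% of genes), 3 of 6 in the library labelled Tbx1neo2/neo2 (*Pax9*, *Six2* and *Eya1*; 38.4%) and 4 of 6 in the Foxn11089/1089 library (*Pax9*, *Six2*, *Eya1* and *Trp63*; 27.6%). *Pax9* and *Six2* were lower in Krt5-high than in Psmb11-positive cells of all 3 libraries, and with 3 libraries the smallest two-sided p of an exact test of direction is 0.25.

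In Pdgfra-positive cells the members were scarce, and *Six4* stood above the hemoglobin-high level in all 3 libraries. *Six4* held 20, 313 and 279 UMIs (3, 8.43 and 8.22 CPM), 5.23-fold (1.27 to 46.2), 58.4-fold (10.4 to 2314, on 1 UMI) and 10.2-fold (6.61 to 16.6) the hemoglobin-high level. Over the control it was 2.81-fold (1.79 to 4.67) and 2.74-fold (1.74 to 4.56). *Six2* held 10, 254 and 99 UMIs (1.5, 6.84 and 2.92 CPM), a fold of 4.57 (2.44 to 9.64) and of 1.95 (1.02 to 4.19) over the control. Against hemoglobin-high cells *Six2* was 1.05-fold (0.326 to 3.90), 9.48-fold (4.01 to 29.4) and 1.73-fold (1.21 to 2.51). In the control, *Six2* in Pdgfra-positive cells could thus not be told from the hemoglobin-high level. In the library labelled Tbx1neo2/neo2, *Pax9* was 13.8-fold (2.40 to 553, on 1 UMI) and *Eya1* 7.09-fold (1.90 to 59.6, on 2 UMIs) the hemoglobin-high level, and in the Foxn11089/1089 library they were 1.48-fold (1.06 to 2.09) and 1.92-fold (1.25 to 3.03). *Eya1* was at 1.35, 2.05 and 2.18 CPM and *Trp63* at 0.749, 0.377 and 0.619 CPM, on 5 to 76 UMIs. Past 1.5-fold were 3 members higher (*Six2*, *Six4*, *Eya1*) and 1 lower (*Trp63*) in the library labelled Tbx1neo2/neo2, against 36.4% and 10.8% of genes, and 4 higher (*Pax9*, *Six2*, *Six4*, *Eya1*) and 0 lower in the Foxn11089/1089 library, against 22.8% and 11.7%. The intervals of *Eya1* and *Trp63* included 1 in both comparisons. In hemoglobin-high cells *Trp63* was at 1.145, 0 and 1.354 CPM. Control *Pax9* was at 1.498 CPM in Pdgfra-positive and 1.431 CPM in hemoglobin-high cells, and control *Eya1* at 1.35 and 0.5724 CPM. For each of these genes the intervals of the control levels overlapped, so the control level could not be told from that floor. The cartilage list (*Sox9*, *Col2a1*, *Acan*, *Matn1*) summed to 37.1, 129.9 and 44.6 CPM in these cells, and its part in the ratios was not tested.

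Endothelial and blood cells held little of the members. In Cdh5-positive cells (50, 93 and 104 cells) *Eya1* was at 1.24, 8.90 and 2.30 CPM, on 1, 31 and 12 UMIs. The library labelled Tbx1neo2/neo2 had 30.8-fold (7.84 to 266) more *Eya1* in these cells than in its hemoglobin-high cells, on 2 UMIs in the latter. In Ptprc-positive cells *Pax1* was at 3.62, 2.66 and 5.61 CPM and each other member under 2 CPM.

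The share of cells with a UMI was also counted for each member. After thinning to 5000 UMIs, 1925, 780 and 3645 Epcam-positive cells remained, and 53, 27 and 200 shallower cells were left out. A *Trp63* UMI was found in 16.3% (14.7 to 18.0), 33.2% (29.9 to 36.6) and 31.2% (29.7 to 32.8) of them, against 43.0%, 79.3% and 65.2% before thinning. For *Eya1* the thinned shares were 11.4% (9.99 to 12.9), 17.2% (14.6 to 20) and 28.9% (27.5 to 30.4), and for *Six4* 11.3%, 19.4% and 22.2%. A *Pax1* UMI was in 90.5%, 77.8% and 86.1%, a *Pax9* UMI in 47.8%, 43.3% and 56.3%, and a *Six2* UMI in 38.4%, 34.7% and 34.0%. Hemoglobin-high cells (median depth 8610, 18641 and 12501 UMIs) had a *Pax1* UMI in 2.60%, 2.03% and 3.62% and each other member in at most 1.12%. The mean number of members seen per cell was 2.16, 2.26 and 2.59, and none was seen in 3.84%, 16.7% and 2.25% of cells. Without Nkx2-1-positive and Pth-high cells, that last share was 3.73%, 0.977% and 1.93%, and the means were 2.17, 2.77 and 2.65.

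Members seen together in a cell were counted in the same thinned cells, leaving out Pth-high cells. In the library labelled Tbx1neo2/neo2, 55.0% of cells with a *Pax1* UMI also had *Pax9*, against 2.31% of those without, and for *Six2* the shares were 42.7% and 6.94%. The cells without *Pax1* there include most of the Nkx2-1-positive ones, of which 27 of 166 had a *Pax1* UMI before thinning. In the control the same shares were 49.0% and 32.0% for *Pax9*, and 40.2% and 25.6% for *Six2*. In the Foxn11089/1089 library they were 54.5% and 45.4% for *Pax9*, and 38.3% and 26% for *Six2*. Other pairs went the other way in the control, such as *Trp63* in 15.4% of cells with *Pax9* and 17.4% of those without, and *Six4* in 9.73% of cells with *Six2* and 12.4% of those without. For *Six4* and *Eya1* the shares lay close: 11.6% of control cells with *Six4* had *Eya1* and 11.3% of those without, and the shares were 15.9% and 17.5% in the library labelled Tbx1neo2/neo2 and 27.8% and 28.2% in the Foxn11089/1089 library.

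Other genes of the same network were read from lists chosen with earlier results known. Of 15 other genes of the paired-box, sine oculis homeobox, *Eya* and *Dach* families, 10 had at least 30 UMIs in Epcam-positive cells: 4 were at least 1.5-fold higher and 0 lower in the library labelled Tbx1neo2/neo2 (39.0% and 12.0% of all genes), and 7 higher and 1 lower in the Foxn11089/1089 library (36.8% and 14.1%), with median log2 ratios of 0.49 and 1.22. *Dach1*, a cofactor of sine oculis homeobox proteins, was at 16.4, 16.2 and 47.6 CPM and *Sobp* at 23.4, 32.8 and 65.0 CPM. *Eya2* went the other way from *Eya1* in the Foxn11089/1089 library, at 97.5, 126.5 and 58.7 CPM (0.602-fold, 0.576 to 0.629). *Pax8*, a thyroid factor, was at 0.503, 46.3 and 0.835 CPM, and at 0.120, 0.276 and 0.456 CPM without Nkx2-1-positive and Pth-high cells.

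Of 13 pouch patterning genes 12 were measured, with 5 higher and 3 lower in the library labelled Tbx1neo2/neo2 and 8 higher and 1 lower in the Foxn11089/1089 library, beside the same shares of all genes, and medians of 0.34 and 1.07. *Gata3*, a factor of the parathyroid domain, was at 28.7, 6.38 and 120.5 CPM, and *Gcm2*, the parathyroid master factor, held 62, 0 and 3840 UMIs. In Pth-high cells *Gata3* was at 1144 CPM in the control and 705 CPM in the Foxn11089/1089 library, against 9.96 and 17.5 CPM in their Psmb11-positive cells. *Isl1* was at 86.4, 124.5 and 158.8 CPM and *Hoxa3*, needed for the third pouch, at 19.3, 21.3 and 36.3 CPM. *Tbx3*, a repressor of the pouch, stood at 1.04 CPM in the control, 20.6 CPM in the library labelled Tbx1neo2/neo2 and 5.36 CPM in the Foxn11089/1089 library. *Tbx3* was at 0.747, 1.56 and 5.24 CPM without Nkx2-1-positive and Pth-high cells.

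All 11 genes of the p63 list were measured, 2 higher and 1 lower in the library labelled Tbx1neo2/neo2 (39.0% and 12.0% of all genes) and 1 higher and 3 lower in the Foxn11089/1089 library (36.8% and 14.1%), with medians of 0.12 and -0.21, below the all-gene medians. *Krt14*, a basal keratin, was at 15.4, 11.1 and 1.35 CPM, and *Krt15* at 4.08, 5.16 and 23.2 CPM. *Sfn*, also a marker of the epithelial list, was at 856.3, 525.1 and 528.7 CPM, and *Fgfr2*, the receptor for mesenchymal FGF signals, at 104.9, 114.0 and 69.0 CPM. *Trp53* was at 125.9, 212.3 and 152.2 CPM.

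**Figure D4:**
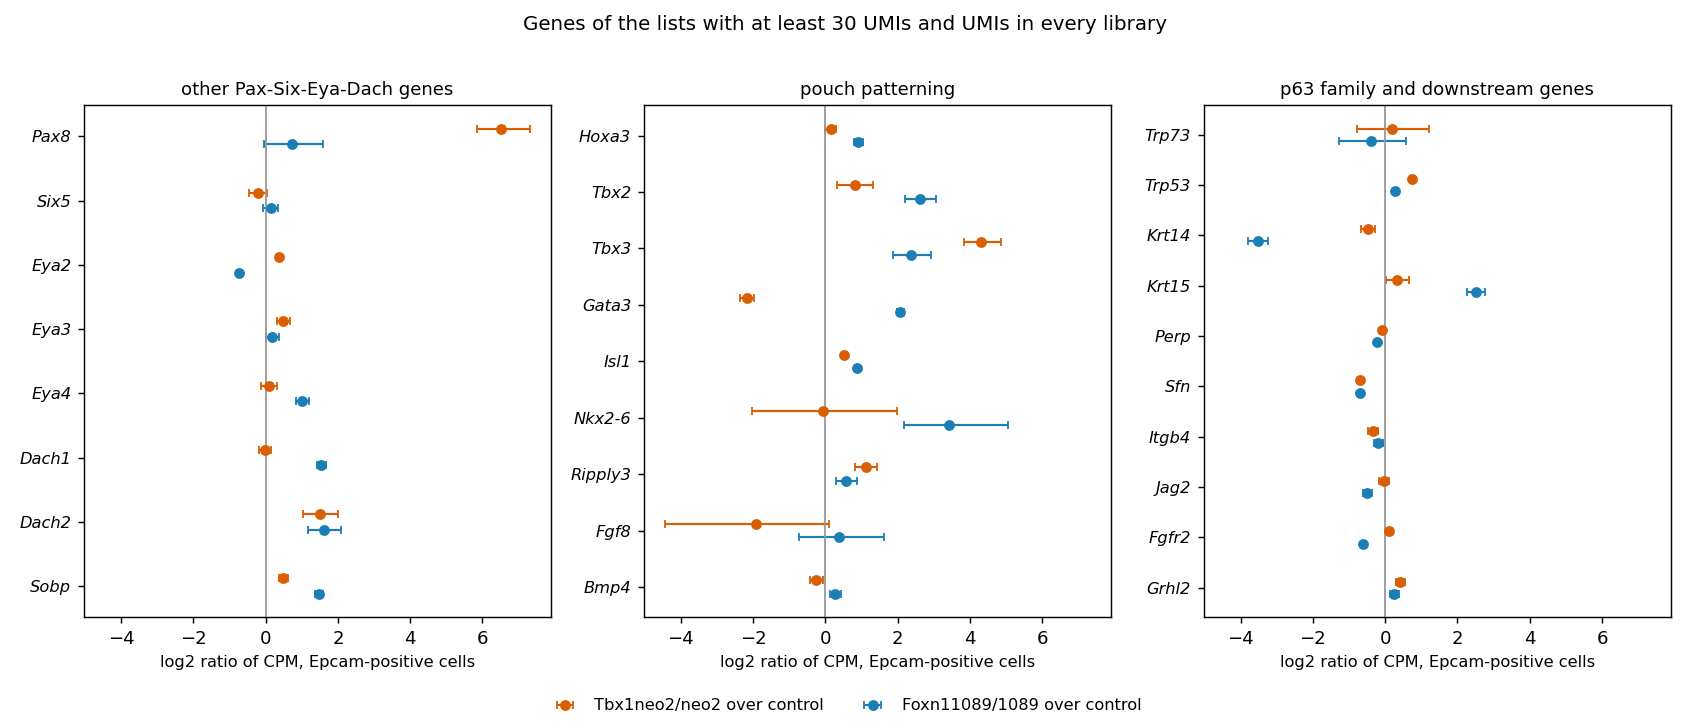
Log2 ratio of CPM to the control library in Epcam-positive cells, with 95% counting intervals, for genes of the 3 lists that had at least 30 UMIs and UMIs in every library (*Six3*, *Gcm2* and *Shh* are not drawn). *Dach2* and *Isl1* lie above 0 in both comparisons, *Gata3* on opposite sides, and most genes of the p63 list within 1 of 0.

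The genes whose levels ran most like each member were ranked by Pearson's r of log2(CPM + 1) over 30 points (cell groups of the 3 libraries, which share libraries and depth), among 15265 genes with at least 100 UMIs. For *Pax1* the closest was *AI646519* (0.99), the antisense RNA gene that overlaps the start of its GENCODE span, followed by *Dmrt2*, *Pls1*, *Fermt1* and *2610016A17Rik*. For *Pax9* they were *Shisa2* (0.98), *Tmem30b*, *Dmrt2* and *Ntf5*. For *Six2* they were *Diras2* (0.96), *Sv2b*, *Lypd1*, *Bnc1* and *Fgf12*. *Six4* was followed by *Slc4a4* (0.97), *Pclo*, *Ptprf* and *Fat1*, and *Eya1* by *Pax9* (0.95), *Acer2*, *Tmem30b*, *Six4* and *Adgrg2*. *Trp63* was followed by *Fat2* (0.98), *Il7*, *3110039M20Rik*, *Foxn1* and *Fermt1*. Among the members themselves r ran from 0.71 (*Six2* with *Eya1*) to 0.96 (*Pax1* with *Trp63*).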

How the data were processed

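Raw UMI counts per gene and called cell, deposited by the authors without normalization, were analysed from 3 droplet libraries. The submitters' processing notes name Cell Ranger 3.0.0, Seurat and the genome build mm10. Kept barcodes had 200 genes or more and a mitochondrial share of UMIs under 20%. An Epcam-, Pdgfra-, Cdh5- or Ptprc-positive cell had under 10% hemoglobin UMIs, at least 2 UMIs of its marker and at least 4 times as many as of each other marker. Hemoglobin-high cells had at least 50% hemoglobin UMIs. Within Epcam-positive cells, Pth-high meant at least 20 *Pth* UMIs per 10000. Among the rest, Krt5-high meant at least 10 *Krt5* UMIs per 10000 and Psmb11-positive at least 2 *Psmb11* UMIs. Cells with both were set apart.

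Levels are CPM of summed counts with exact Poisson intervals. Ratios have conditional binomial intervals and shares Clopper-Pearson intervals. Ratios over all genes used genes with at least 30 UMIs over the libraries, and 0.5 UMI was added to both sums only where a library had 0. Genotypes were not tested against each other, because the cells of 1 library cannot stand in for replicates. The totals of 82936619, 137498422 and 204655055 UMIs (control, Tbx1neo2/neo2, Foxn11089/1089) set the precision. Scrublet in scanpy 1.11.5 (anndata 0.12.19) marked likely doublets, which stayed in. The intervals were checked on simulated Poisson sums. Such sums leave out differences between the cells of a library, so the check does not cover these. Alternatives covered the gates, the mitochondrial limit, doublets, depth, weighting, denominator, centring and fold. No column of sample values was left out (0 unused).

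Named genes were the members, the gate and targeted genes, the genes of 3 lists and the 5 genes most like each member. Some listed genes are not reported here. The members and lists were chosen with earlier results of these data known. *Gm15524* was named after its position was seen, as was the cartilage list beside the Pdgfra-positive cells. Positions are from GENCODE on GRCm38 and upstream sequences from RefSeq on GRCm38.p6. Scripts ran in Python 3.11.15. Arrays and tables were handled with pandas 2.3.3 and numpy 2.4.6, intervals came from scipy 1.17.1, and plots from matplotlib 3.10.9.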

Additional observations from a re-analysis of the deposited data

Results flagged for a closer look

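*Six2* in the library labelled Tbx1neo2/neo2 stood on opposite sides of the control in different cells. Its log2 ratio was 2.19 in Pdgfra-positive cells (10 UMIs in the control and 254 in that library) and -0.82 in the Epcam-positive cells that were none of the named groups (130.9 CPM in the control and 74.4 CPM in that library). The difference was not tested, since each genotype had 1 library. Nkx2-1-positive cells made up 166 of the 807 Epcam-positive cells of that library and held *Six2* at 6.25 CPM. Without them and without Pth-high cells, *Six2* over all Epcam-positive cells was 1.19-fold the control.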

How the results depend on the processing

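No paired analysis was possible because each genotype had 1 library, and for the same reason no replicate could be left out. The number of members past the fold moved by more than 1.5 times as follows. With a fold of 2, 1 member stayed past it in Epcam-positive cells of the library labelled Tbx1neo2/neo2 (3 at 1.5-fold), and 2 did in Pdgfra-positive cells of either mutant library (4 at 1.5-fold). In Pdgfra-positive cells, 2 members were past 1.5-fold with a gate of at least 3 UMIs (Foxn11089/1089), with a gate of at least 1 UMI per 10000 (Tbx1neo2/neo2), and with each cell weighted equally (Foxn11089/1089). Centred on the median of all genes, 5 members were past it in Epcam-positive cells of the Foxn11089/1089 library, 3 higher and 2 lower. Of the 30 genes most like a member, 18 were also named with log2(CPM + 10). Turned in direction were *Eya1* in Krt5-high cells labelled Tbx1neo2/neo2 with each cell weighted equally (-0.27 against 0.60 on the log2 scale) and *Six2* in the same cells with Psmb11-positive set from 1 UMI per 10000 (0.48 against -0.77, on 7 UMIs in the main setting). The causes were not tested.

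Of 65 log2 ratios, 65 stayed within their counting interval with a mitochondrial limit of 10%, with cells of at least 5000 UMIs and with the other denominator, 60 of 64 without likely doublets, 46 with each cell weighted equally and 25 when centred. With Psmb11-positive set from 1 UMI per 10000, 31 of 41 log2 ratios stayed within their interval, 9 left it and 1 turned in direction. Pth-high cells of the library labelled Tbx1neo2/neo2 gave no value under any setting reported here. Depth limits the Pth-high comparison, with 27 control cells, and the Pdgfra-positive one, with 5 to 40 control UMIs per member.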
